A study of Danio rerio with 15 samples.

Results

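The extracellular matrix genes described here are the collagens, laminins, fibronectins, fibulins, periostin, osteonectin (sparc), lysyl oxidases, matrix metalloproteinases and their inhibitors of the zebrafish (Danio rerio). They were taken as every probe set whose single gene symbol in the array's annotation begins with the name of one of these families. The rule found 55 probe sets of 44 genes among 15502 probe sets tested, 10795 of which carry a single symbol. Another 2 probe sets, for timp4.3 and col1a1b, carry a further symbol each and were left out. The members were 9 probe sets of dermal collagens, 8 of cartilage-type collagens, 8 of basement membrane and epithelial collagens, 8 of laminins, 9 of fibronectins, fibulins and matricellular proteins, 2 of cross-linking oxidases, 9 of metalloproteinases and 2 of metalloproteinase inhibitors. No fibrillin and no type IV collagen gene was among them.

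Total RNA was measured on 15 Affymetrix zebrafish arrays, 1 per tissue piece. There were 6 melanomas and 6 pieces of skin directly beside a melanoma (mutant skin), both of genotype mitf-BRAFV600E;p53-/-, and 3 pieces of wild-type skin of genotype Tu. In the mutant line the mitf promoter, active in pigment cells, drives a mutant BRAF kinase, and the fish lack functional p53, in the skin beside the tumour as well as in it. Fish were 4 to 8 months old, and wild-type skin was taken along the length of the flank. Mutant skin is therefore not skin of a normal fish. The labels do not say that the arrays with the same number came from 1 fish, and p-values measure the spread between these pieces.

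As background, fibrillar collagens such as type I give the dermis and the scales their tensile strength, and other collagens sit on or between these fibrils. Network-forming collagens, laminins and anchoring collagens form the basement membrane that an epithelium rests on and that invading tumour cells must cross. Lysyl oxidases cross-link the fibres, metalloproteinases cut matrix proteins, and TIMPs block these proteases. In skin these genes are expressed mainly by fibroblasts, scale-forming cells and keratinocytes.

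All values are on a log2 scale, as the submitters normalised them, against an unstated baseline for each probe set, so differences between arrays can be read and absolute levels, or levels of different genes, cannot. Values of single arrays are listed in the order of the array numbers. No member value lay at the floor of the scale: the lowest was -6.31 and the highest 6.84. Members varied more between arrays than most probe sets, with a median SD over the 15 arrays of 1.31 against 0.785 for all probe sets.

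Some arrays stood apart, and the results that leaving them out changes are also given without them. Oocyte markers had a mean level of 2.75 to 6.37 in 7 arrays, namely 4 of mutant skin (1, 2, 4 and 6), 1 melanoma (6) and 2 of wild-type skin (1 and 2), and of -1.09 to 0.83 in the other 8. The mean of 5 melanocyte probe sets was 2.28 to 3.27 across melanoma 1 to 5 and -0.27 for melanoma 6, against -3.28 to -0.77 in mutant skin and -2.75 to -2.62 in wild-type skin. Among mutant skin arrays number 2 had the highest melanocyte level, -0.77, and the lowest levels of keratinocyte markers, -0.91, and skeletal muscle markers, -0.59. The other mutant skin arrays had keratinocyte levels of 0.05 to 2.38 and muscle levels of 0.10 to 2.31. The melanocyte-marker mean thus followed the tissue labels, most weakly in melanoma 6.

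**Figure D1:**
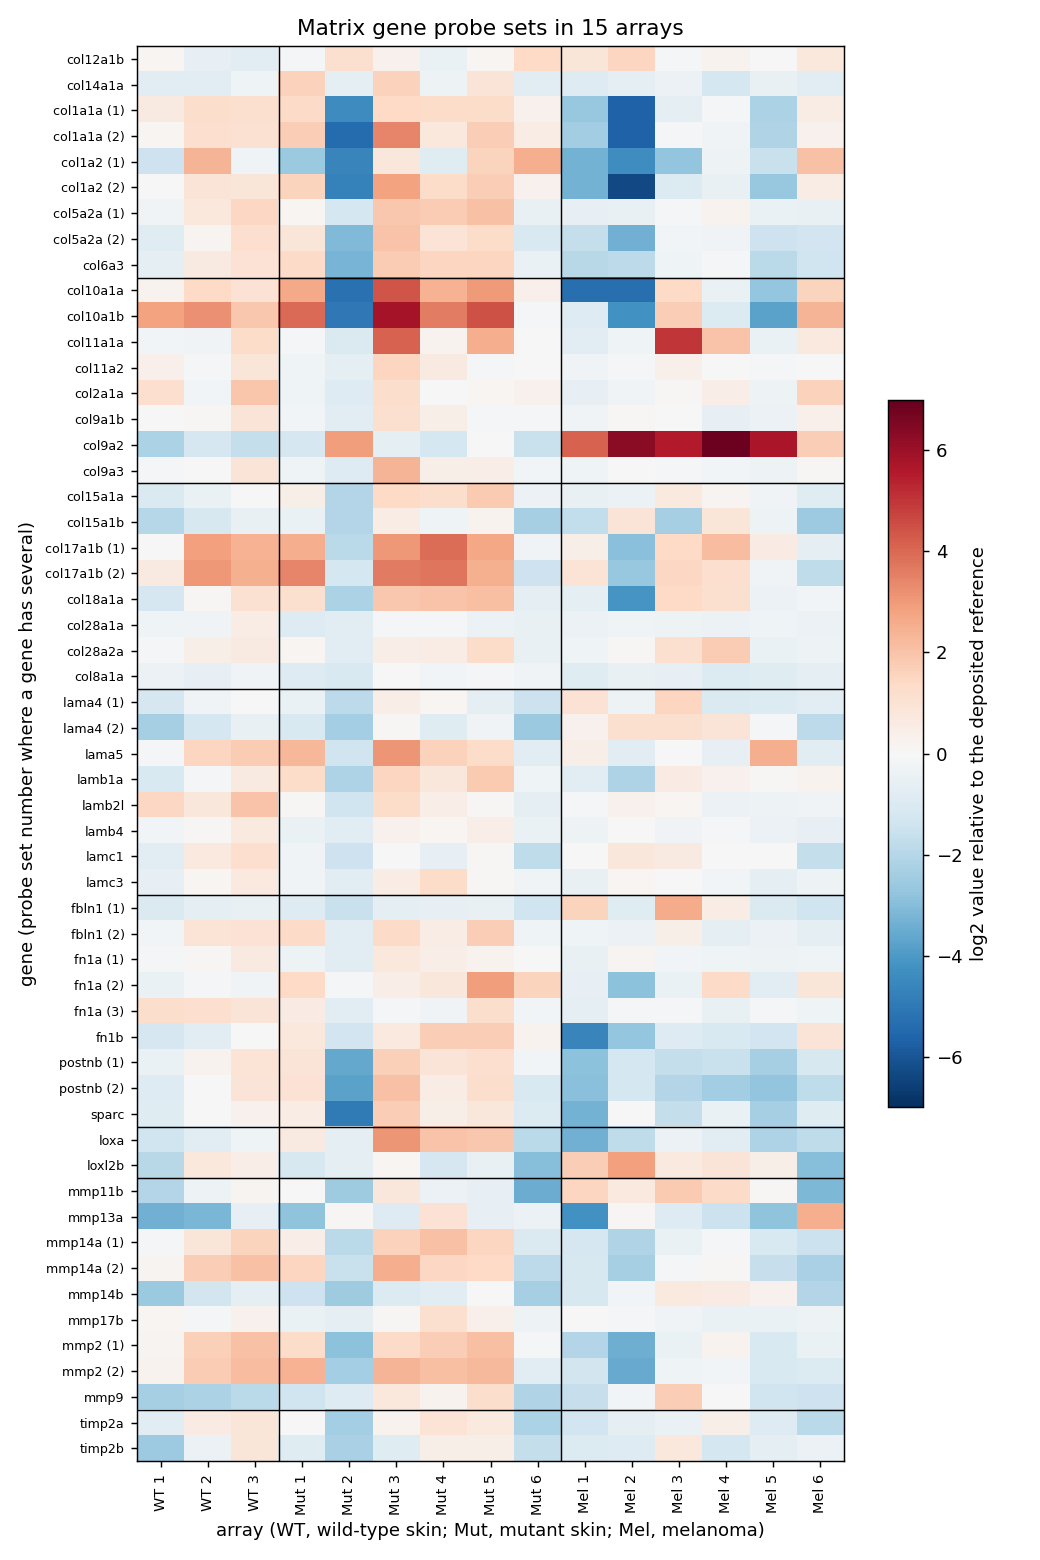
Log2 values of the 55 probe sets (rows, grouped by role as in the text, from dermal collagens at the top to metalloproteinase inhibitors at the bottom) in the 15 arrays (columns), relative to the deposited reference. The row of col9a2 is red in melanoma 1 to 5, and most rows of dermal collagens and matricellular genes are blue in mutant skin 2 and in melanoma 1, 2 and 5.

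The first comparison asked how the matrix genes of a melanoma differ from those of the skin beside it. With all arrays, 1 member rose, the cartilage collagen gene col9a2, and 1 fell, the lysyl oxidase gene loxa. These are 1.82% of the 55 members in each direction, while 6.44% of all probe sets rose and 4.35% fell, so both shares lie below the background. The groups did not overlap for 0 members, against 2.36% of all probe sets. Of the members 41 had a change below 0, with a median of -0.54 against 0.00 for all probe sets, and 15 of 55 had an unadjusted p under 0.05, as did 3958 of the 15502.

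The count of lowered members depended on mutant skin 2. Mutant skin 2 stood apart by low values of several of these same genes, so leaving it out favours calls of lowered members. Here and below, p-values from fits without that array are descriptive and no independent support. Without that array 16 members fell, or 29.1%, and 1 rose, while 6.64% of all probe sets fell and 6.32% rose. Without the 7 arrays with high oocyte levels 21 fell, or 38.2%, and 1 rose, while 9.79% of all probe sets fell and 9.26% rose. The latter fit keeps 5 melanomas, 2 mutant skin arrays, numbers 3 and 5, and 1 wild-type array. Of all mutant skin arrays these 2 had the highest means over the members, 1.31 and 1.03, and over the dermal collagens, 1.77 and 1.35. Leaving out the 7 arrays therefore also favours calls of lowered members, and its p-values are descriptive too. Among the 55 members the median change was -0.74 without mutant skin 2 and -1.68 without the 7 arrays, beside -0.05 and -0.07 over all probe sets. The members lowered without mutant skin 2 were 5 dermal collagen probe sets, both col10a1 genes, 5 of the matricellular group, loxa and 3 of the metalloproteinases.

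**Figure D2:**
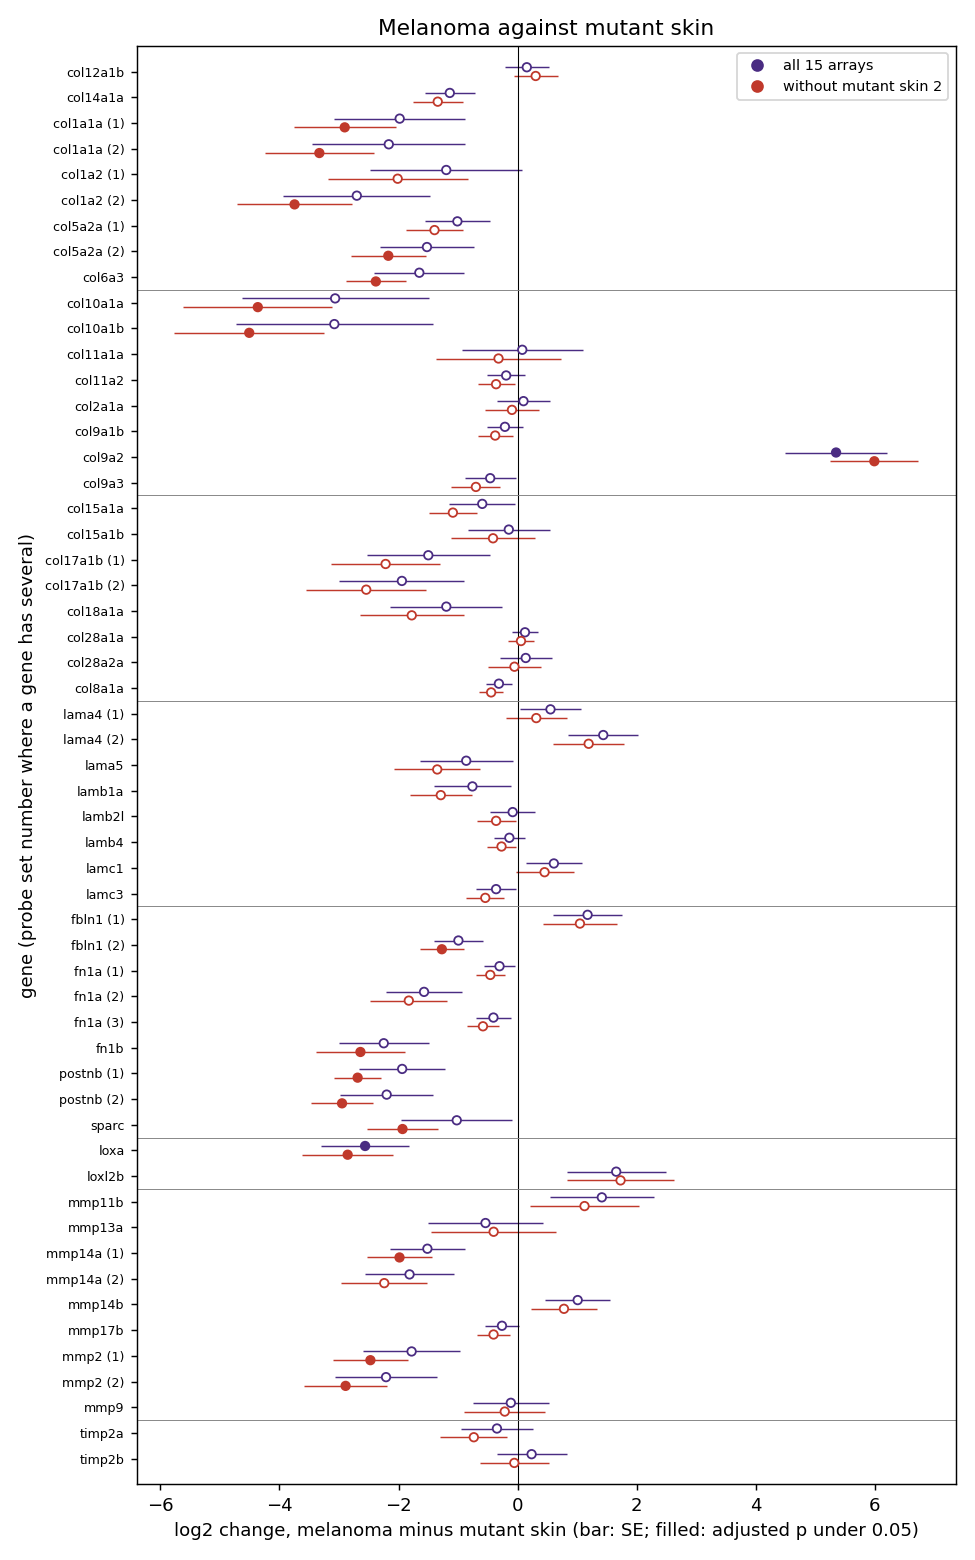
Log2 change (melanoma minus mutant skin, x axis, with standard errors) of each probe set (y axis) with all 15 arrays and without mutant skin 2. Filled points have adjusted p under 0.05. With all arrays col9a2 and loxa are filled, and without mutant skin 2 a block of dermal collagens, postnb and mmp2 joins loxa to the left of 0.

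Among the cartilage-type collagens col9a2 stood alone. It encodes the alpha 2 chain of type IX collagen, which in cartilage decorates type II collagen fibrils as a trimer with the alpha 1 and alpha 3 chains. Its values were 4.16, 6.34, 5.53, 6.84, 5.74 and 1.73 in the melanomas, -1.19, 2.92, -0.69, -1.22, 0.01 and -1.58 in the mutant skin arrays and -2.21, -1.18 and -1.67 in the wild-type arrays. All melanomas lay above the 3 wild-type arrays and above 5 of the 6 mutant skin arrays, and mutant skin 2 lay above melanoma 6. The change against mutant skin was 5.35 ± 0.86 (levels 5.05 ± 1.87 and -0.29 ± 1.67, SD, n = 6 each, adjusted p = 0.00287), or 40.7-fold, and against wild-type skin 6.74 ± 1.06 (adjusted p = 0.00161), or 107-fold. Errors beside changes are standard errors of the fit. The call held in each of the 22 alternative fits, with changes of 4.71 to 6.81 against mutant skin and adjusted p up to 0.0104. It rests on 1 probe set.

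The probe sets of the partner chains did not follow it. Whether they were above background cannot be told from values with an unstated baseline. Flat values need not mean flat RNA levels. The alpha 1 chain was represented by col9a1b alone, and no further type IX collagen gene was among the members. For col9a1b the values were -0.59 to 0.36 among melanomas, -0.75 to 1.13 among mutant skin arrays and 0.02 to 0.90 among wild-type arrays, and the groups overlapped. Those of col9a3 were -0.37 to 0.10 among melanomas, -0.88 to 2.39 among mutant skin arrays and -0.10 to 0.91 among wild-type arrays, with mutant skin 3 the highest. Their changes against mutant skin were -0.21 ± 0.31 and -0.46 ± 0.43 (adjusted p = 0.751 and 0.577). Without the 7 arrays col9a3 fell, by 1.62 (adjusted p = 0.0403). Within an array col9a2 exceeded col9a1b by 5.56 log2 units more in melanoma than in mutant skin (two-sided exact permutation p = 0.00433, 5 of 6 melanomas above all mutant skin arrays), and col9a3 by 5.81 (exact p = 0.00433, also 5 of 6). Both held after adjustment over the 17 gene pairs tested in this way (adjusted exact p = 0.0245 for each). These were all pairs of member genes with the same name stem: the same collagen, metalloproteinase or TIMP number, the same laminin chain letter, or the stems fn1 and lox. The stems were chosen with the members' values known, and other groupings would give another number of pairs. The 2 differences with col9a2 share that gene and largely restate its own change of 5.35. They therefore say little of the RNA of its partners.

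The type II collagen gene col2a1a, the main fibril of cartilage, had values of -0.59, -0.23, 0.10, 0.46, -0.34 and 1.61 in the melanomas against -0.89 to 1.24 in mutant skin and 1.17, -0.17 and 1.93 in wild-type skin. No group stood apart, and the change against mutant skin was 0.10 ± 0.45 (adjusted p = 0.934). The gene col11a1a, for a minor fibrillar collagen, was high in melanoma 3, at 5.03, and in mutant skin 3, at 4.12, and lay between -1.03 and 2.53 in the other arrays. Its change was 0.08 ± 1.02 (adjusted p = 0.978). The changes of col11a2 and of the other members of this group apart from col9a2, col10a1a and col10a1b were between -0.46 and 0.10. Of the other cartilage genes on a list of 19 (structural proteins such as matn1, matn4 and hapln1a, and the regulators sox9a, sox9b and sox5), 9 were measured by 16 probe sets. In melanoma against mutant skin 1 of these rose and 0 fell, and 4 fell without mutant skin 2. Of all probe sets 6.64% fell in the latter fit. With all arrays 15 of the 16 had changes below 0, with a median of -0.47 and a lowest of -2.75. The one that rose was sox5 (1.41 ± 0.33, adjusted p = 0.0153), a transcription factor of chondrocytes and of pigment cells, whereas sox9a had a change of -0.08 ± 0.21, adjusted p = 0.881. The chondrocyte gene matn1 had a change of -0.21 ± 0.40, adjusted p = 0.825. Against wild-type skin 4 of the 16 fell and 0 rose, while 6.36% of all probe sets fell and 7.46% rose.

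The probe sets most like col9a2 over all arrays were of other gene families. By Pearson's r over the 15 arrays, among 10794 other probe sets with a single symbol, the closest was mitfa, the melanocyte regulator, with r = 0.974. It was followed by tnfsf10l3, wu:fi26d02, the ETS factor gene etv4, the synaptic vesicle gene syngr1a, mfsd10, the BMP ligand gene gdf6a and nit1, down to r = 0.956. The 15 points share the split into melanoma and skin. The closest member was lama4 (r = 0.659), and col9a1b and col9a3 had r = -0.514 and -0.380.

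**Figure D3:**
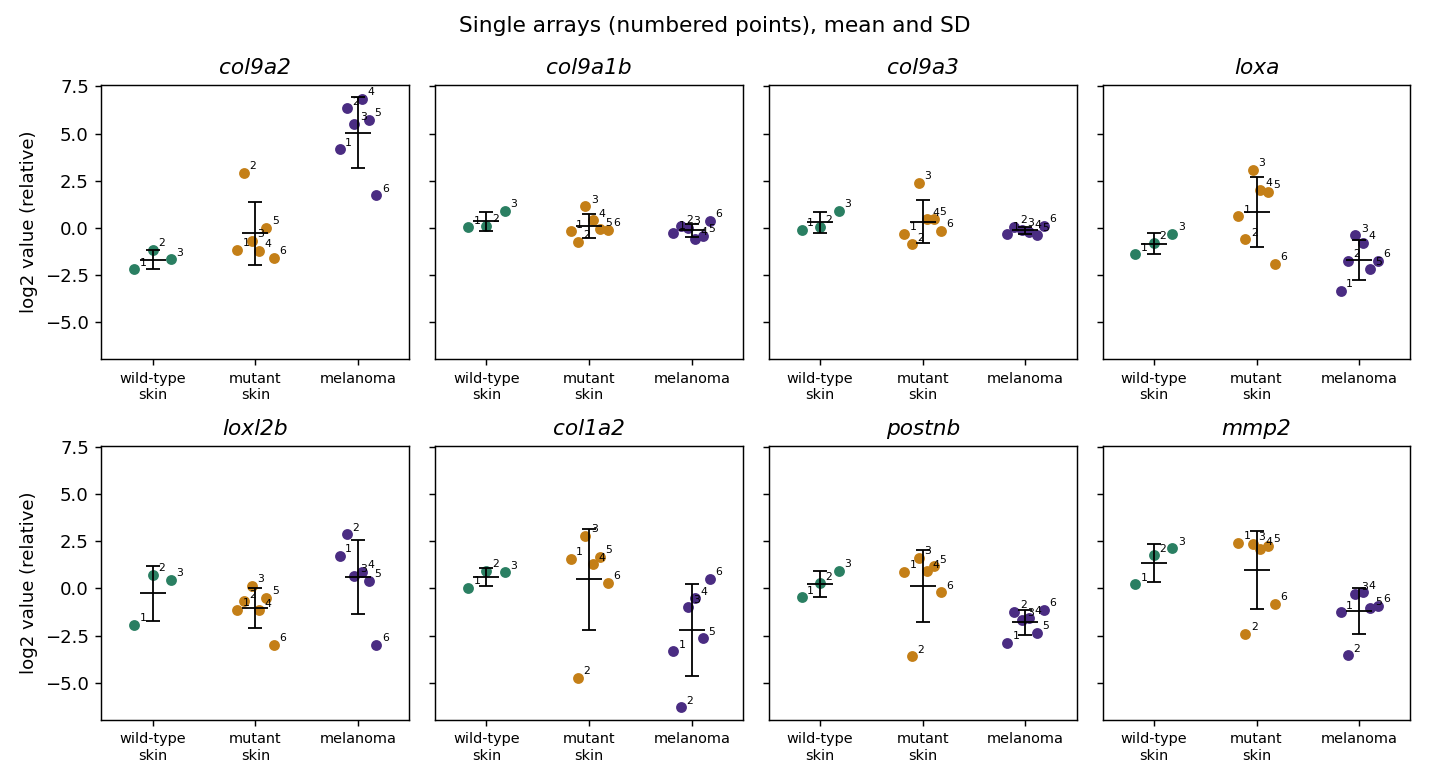
Log2 values of 8 probe sets in single arrays (numbered points) with the mean and SD of each group (3 wild-type skin, 6 mutant skin and 6 melanoma arrays). The melanoma points of col9a2 lie at 1.73 to 6.84 while those of col9a1b and col9a3 stay near 0, and mutant skin 2 is the lowest mutant skin point of col1a2, postnb and mmp2.

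The type X collagen genes col10a1a and col10a1b, expressed in hypertrophic cartilage of mammals and in bone-forming cells of zebrafish, varied most widely among the cartilage-type members apart from col9a2. For col10a1b the values were 3.99, -5.03, 5.83, 3.56, 4.48 and -0.12 in the mutant skin arrays, -0.90, -4.26, 1.73, -0.96, -3.77 and 2.40 in the melanomas and 2.79, 3.20 and 1.90 in wild-type skin. Mutant skin 1, 3, 4 and 5 lay above every melanoma, and mutant skin 2 below all of them. The change was -3.08 ± 1.65 (adjusted p = 0.266), and -4.51 ± 1.26 without mutant skin 2 (adjusted p = 0.0309). The gene col10a1a was at -5.26 in melanoma 1 and 2, -2.71 in melanoma 5 and -5.21 in mutant skin 2, and at -0.44 or more elsewhere. Whether its near-equal lowest values mark the low end of the probe set cannot be told. Its change was -3.07 ± 1.57 (adjusted p = 0.242), and -4.36 ± 1.25 without mutant skin 2 (adjusted p = 0.0345). The mean of 14 probe sets of scale and bone genes was -1.14 to 0.72 among melanomas, 0.69 to 1.502 among mutant skin arrays and 1.29 to 1.64 among wild-type arrays. It was 0.69 in mutant skin 2, where both col10a1 genes were at their lowest or nearly so, and its part in the result was not tested.

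Dermal collagens were lower in most melanomas than in most mutant skin arrays, yet none of their 9 probe sets passed the test with all arrays (3 had an unadjusted p under 0.05, median change -1.52). Without mutant skin 2 it was 5 of 9, and without the 7 arrays 7 of 9. Of the 2 probe sets of col1a2, the type I collagen alpha 2 chain, probe set 2 had values of 1.58, -4.74, 2.81, 1.29, 1.70 and 0.29 in the mutant skin arrays, -3.33, -6.31, -0.98, -0.53, -2.65 and 0.52 in the melanomas and 0.05, 0.93 and 0.86 in wild-type skin. Melanoma 6 and mutant skin 2 each lay among the values of the other group. The change was -2.70 ± 1.24 (adjusted p = 0.185), -3.75 ± 0.96 without mutant skin 2 (adjusted p = 0.022) and -5.01 without the 7 arrays. With the oocyte level as a covariate it was -2.98 ± 1.40 (adjusted p = 0.154). The other probe set of col1a2 was more scattered, with a change of -1.20 ± 1.27, and correlated with the first at r = 0.736 over the arrays. In bulk tissue, fewer cells of a type and less RNA per cell cannot be told apart, here and below.

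The alpha 1 chain gene col1a1a had a like pattern. Its probe set 1 had values of -2.64, -5.65, -0.63, -0.08, -2.22 and 0.54 in the melanomas, 1.36, -4.41, 1.40, 1.28, 1.29 and 0.30 in the mutant skin arrays and 0.65, 1.24 and 1.13 in wild-type skin. In this probe set every melanoma lay below the wild-type arrays, and melanoma 2 and mutant skin 2 were the lowest of all. In probe set 2 melanoma 6, at 0.31, lay above wild-type skin 1, at 0.14. The change of probe set 1 against mutant skin was -1.98 ± 1.097 (adjusted p = 0.283), and -2.90 ± 0.86 without mutant skin 2 (adjusted p = 0.04). With the oocyte level as a covariate it was -2.09 ± 1.25 (adjusted p = 0.258). Both probe sets of this gene match more than 1 transcript by their _s_at suffix, so other type I collagen transcripts may add to them.

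The type VI collagen gene col6a3, for a microfibril of the interstitial matrix, had values of -1.95 to -0.13 among melanomas and -3.25 to 1.76 among mutant skin arrays, where number 2 was the lowest. Without that array its change, -2.38 ± 0.50, passed the test (adjusted p = 0.00788). In the fit with the oocyte level as a covariate, which keeps mutant skin 2, it was -2.46 ± 0.74 (adjusted p = 0.0357). The type V collagen gene col5a2a, whose product starts fibrils, had changes of -1.52 ± 0.79 and -1.01 ± 0.54 in its 2 probe sets (adjusted p = 0.246 and 0.265). The former passed without mutant skin 2 (-2.17, adjusted p = 0.0358). In the covariate fit both passed, at -2.40 ± 0.76 and -1.79 ± 0.45 (adjusted p = 0.0428 and 0.0167). For col14a1a, on the surface of fibrils, the change was -1.14 ± 0.42 (adjusted p = 0.101, and 0.0504 without mutant skin 2). It was -1.52 ± 0.44 in the covariate fit (adjusted p = 0.0288). The fibril-associated gene col12a1b differed from the rest of the group, with values of -0.08 to 1.49 among melanomas and -0.47 to 1.37 among mutant skin arrays. Its change was 0.15 ± 0.37 (adjusted p = 0.868), and 0.30 ± 0.37 without mutant skin 2. In the covariate fit its probe set and those of col1a1a and col1a2 did not pass.

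The mean of the dermal collagens in an array showed where the levels were low. It was -1.77, -2.98, -0.62, -0.26, -1.44 and 0.02 in the melanomas, and 0.65, -2.91, 1.77, 0.66, 1.35 and 0.24 in the mutant skin arrays. In wild-type skin it was -0.33, 0.66 and 0.60. Mutant skin 2 thus had nearly the level of melanoma 2, and the other 5 mutant skin arrays lay above all 6 melanomas. Other cell markers followed it only in part. Melanoma 6, the highest melanoma in dermal collagens, was the lowest melanoma in dermal stroma genes, at -1.07. The mean over 22 skeletal muscle probe sets was -4.31 to -2.61 across melanoma 1 to 5, 0.15 for melanoma 6, and -0.59 to 2.31 in mutant skin. For 19 keratinocyte probe sets it was -2.28 to -0.15 among melanomas and -0.91 to 2.38 among mutant skin arrays. For 9 probe sets of dermal stroma genes, of which 7 of 13 listed genes were measured, it was -1.07 to -0.34 among melanomas and -1.37 to 1.71 among mutant skin arrays, with number 2 the lowest. The part of these cells in the collagen differences was not tested.

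**Figure D4:**
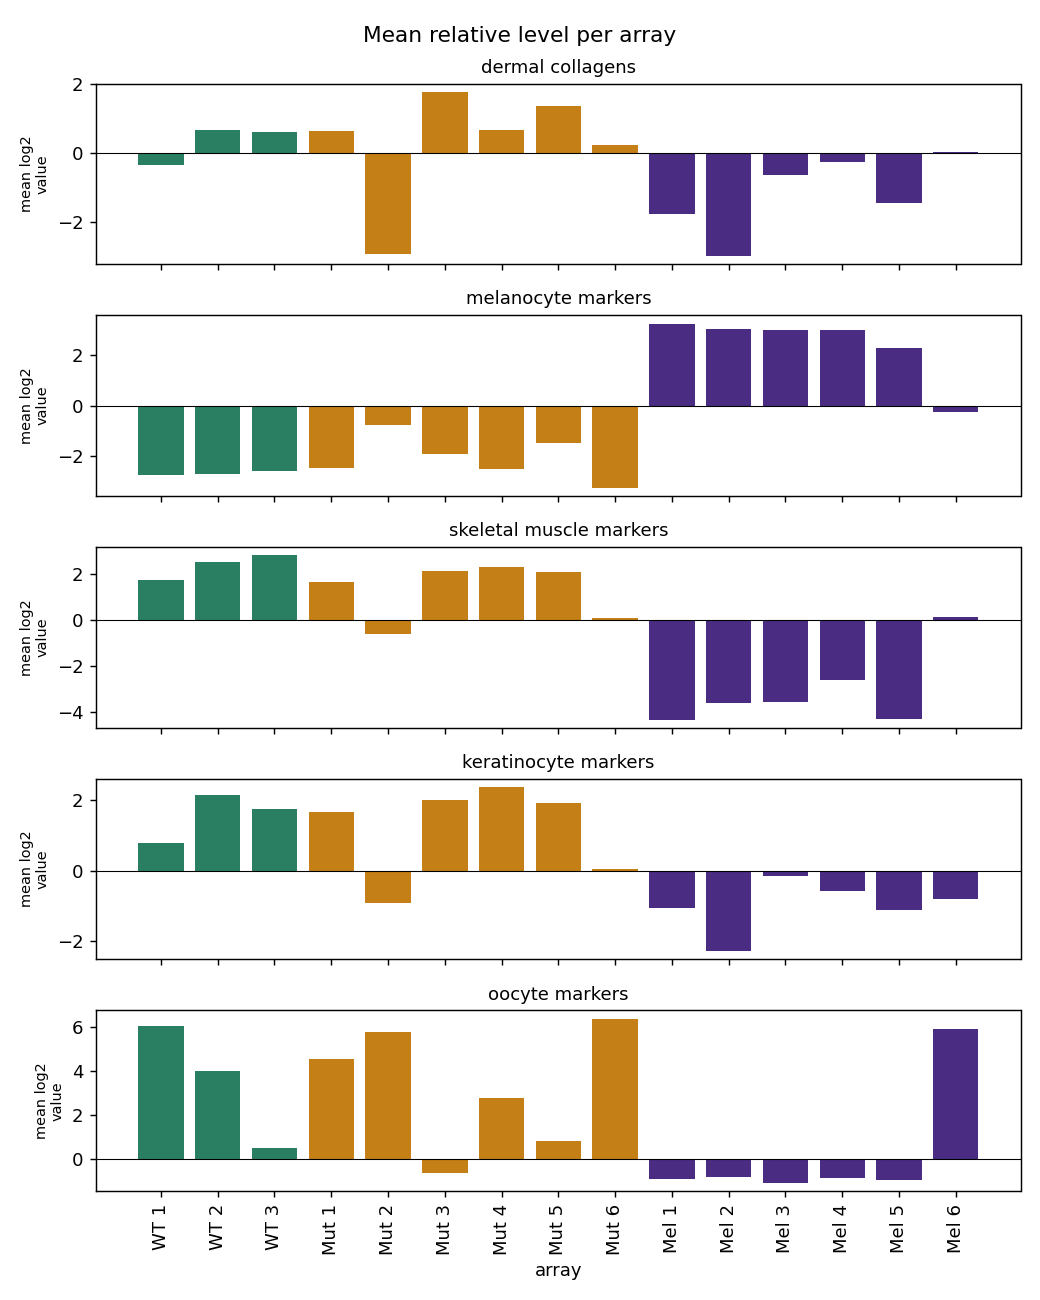
Mean log2 value per array (bars, y axis, relative to the deposited reference) of the 9 dermal collagen probe sets and of 4 marker lists in wild-type skin (WT), mutant skin (Mut) and melanoma (Mel). Mutant skin 2 and melanoma 2 have the lowest collagen bars, at -2.91 and -2.98, and melanoma 6 has muscle and oocyte bars unlike those of melanoma 1 to 5.

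Of the fibronectin, fibulin and matricellular group, proteins that link cells to the fibres, 0 of 9 probe sets passed with all arrays (5 had an unadjusted p under 0.05, median change -1.02) and 5 fell without mutant skin 2. Periostin, encoded by postnb, is secreted by dermal and fin fibroblasts and by bone-lining cells. Its probe set 1 had values of -2.87, -1.25, -1.67, -1.54, -2.34 and -1.14 in the melanomas, 0.89, -3.60, 1.64, 0.92, 1.18 and -0.20 in the mutant skin arrays and -0.47, 0.26 and 0.94 in wild-type skin. All melanomas were below every wild-type array and below 5 of 6 mutant skin arrays. The change against mutant skin was -1.94 ± 0.72 (adjusted p = 0.101), -2.69 ± 0.40 without mutant skin 2 (adjusted p = 0.00212) and -3.34 without the 7 arrays (adjusted p = 0.00185). Its other probe set correlated with it at r = 0.980 over the arrays and had a change of -2.20 ± 0.78 (adjusted p = 0.0871). In the fit with the oocyte level as a covariate, which keeps mutant skin 2, probe set 1 had -2.51 ± 0.76 and the other -3.01 ± 0.78 (adjusted p = 0.0352 and 0.0186).

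Osteonectin, encoded by sparc, is a collagen-binding protein of bone and dermis. Its values were -3.30, -0.01, -1.68, -0.44, -2.31 and -0.85 in the melanomas and 0.53, -4.96, 1.73, 0.43, 0.79 and -0.96 in the mutant skin arrays. Mutant skin 2 was the lowest of all arrays, and melanoma 2, low in the type I collagens, was the highest melanoma at -0.01. The change was -1.02 ± 0.93 (adjusted p = 0.563), and -1.93 ± 0.59 without mutant skin 2 (adjusted p = 0.0466). In the covariate fit it was -1.76 ± 0.98 (adjusted p = 0.226). The fibulin gene fbln1 had a pair of probe sets that went different ways: 1.17 ± 0.58 and -0.995 ± 0.42 (adjusted p = 0.224 and 0.147), with r = 0.0619 between them over the arrays. The former was at 1.54 in melanoma 1 and 2.61 in melanoma 3 and at 0.50 or less elsewhere. In the covariate fit the changes were 0.59 ± 0.58 and -1.53 ± 0.37 (adjusted p = 0.48 and 0.0148). The direction of fbln1 is therefore uncertain.

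The zebrafish has a pair of fibronectin genes. For fn1b the values were -4.61, -2.70, -0.92, -1.06, -1.32 and 0.90 in the melanomas and 0.74, -1.33, 0.68, 1.73, 1.71 and 0.25 in the mutant skin arrays. Melanoma 1 to 5 lay lower than 5 mutant skin arrays, and melanoma 6 was among them. The change was -2.25 ± 0.76 (adjusted p = 0.0725), -2.64 ± 0.74 without mutant skin 2 (adjusted p = 0.0325) and -2.75 ± 0.68 without melanoma 6 (adjusted p = 0.012). Melanoma 6 was the highest melanoma here, so leaving it out favours a fall and that p-value is descriptive. In the covariate fit the change was -2.11 ± 0.86 (adjusted p = 0.103). The 3 probe sets of fn1a differed from one another, with correlations over the arrays of 0.0564, 0.191 and 0.418 and changes of -0.30, -1.57 and -0.41, none of which passed (adjusted p = 0.536, 0.129 and 0.437).

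Basement membrane and epithelial collagens gave no call in 8 probe sets with all arrays, and 0 had an unadjusted p under 0.05. The gene col17a1b, for a transmembrane collagen that ties basal keratinocytes to the basement membrane, had values of 3.42, -1.22, 3.66, 3.76, 2.47 and -1.46 in the mutant skin arrays and 0.96, -2.64, 1.47, 1.18, -0.25 and -1.76 in the melanomas in probe set 2. Mutant skin 1, 3, 4 and 5 lay above all melanomas. The change was -1.94 ± 1.05 (adjusted p = 0.27), and its other probe set, at r = 0.943, had -1.50 ± 1.03. With the oocyte level as a covariate probe set 2 had -3.28 ± 0.95 and the other -2.63 ± 1.00 (adjusted p = 0.0298 and 0.0828). Keratinocyte markers, given above, were also low in melanomas and in mutant skin 2, and their part in the result was not tested. For col18a1a, whose product carries endostatin, the values were -4.14 to 1.40 among melanomas and -2.19 to 2.13 among mutant skin arrays, with melanoma 2 the lowest of all and a change of -1.20 ± 0.94 (adjusted p = 0.481). The remaining members of the group, col15a1a, col15a1b, col28a1a, col28a2a and col8a1a, had changes of -0.60 to 0.14. For col15a1a, of the membranes of vessels and muscle, it was -0.60, -1.09 without mutant skin 2 and -1.68 without the 7 arrays, where it passed (adjusted p = 0.575, 0.0947 and 0.0173). In that last fit 1 of the 8 probe sets fell and all 8 changes were below 0. The changes of col17a1b (probe set 2) and col18a1a were -2.54 and -1.78 without mutant skin 2 (adjusted p = 0.118 and 0.216).

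Laminins are trimers of 1 alpha, 1 beta and 1 gamma chain. None of their 8 probe sets passed against mutant skin (1 had an unadjusted p under 0.05, median change -0.11), and none passed without mutant skin 2 or without the 7 arrays. The alpha 4 chain gene lama4, whose product lies in the membranes of vessels, muscle and nerve, had values of 0.30, 1.14, 1.11, 0.88, -0.07 and -1.82 in the melanomas and -1.05, -2.40, 0.06, -0.84, -0.23 and -2.61 in the mutant skin arrays in probe set 2. The change was 1.44 ± 0.58 (adjusted p = 0.134). Without melanoma 6, the lowest melanoma, it was 1.85 ± 0.51 (adjusted p = 0.0206). It was 0.76 without the 7 arrays, and 0.34 ± 0.29 with the oocyte level as a covariate (adjusted p = 0.42). Its other probe set had a change of 0.55 ± 0.52. The alpha 5 chain gene lama5, for a laminin alpha chain of the epidermis, had values of 0.42, -0.78, 0.02, -0.56, 2.56 and -0.73 in the melanomas. Of these melanoma 5 alone exceeded 0.42, and mutant skin was at -1.42 to 3.09. Its change was -0.86 ± 0.78 (adjusted p = 0.559), and -1.35 without mutant skin 2 (adjusted p = 0.257). The within-array difference of lama4 and lama5 differed by 1.86 between melanoma and mutant skin, which did not hold after adjustment (exact p = 0.0368, adjusted exact p = 0.125). For lamb1a, the most widely used beta chain, the values were -2.14 to 0.56 among melanomas and -2.17 to 1.82 among mutant skin arrays and the change was -0.76 ± 0.65 (adjusted p = 0.531). It was -1.29 without mutant skin 2 and -2.04 without the 7 arrays (adjusted p = 0.126 and 0.0675). The beta and gamma chain genes lamb4, lamc1 and lamc3 had changes of -0.14 ± 0.26, 0.61 ± 0.47 and -0.36 ± 0.33, and lamc1, for the gamma chain of most laminins, ranged over -1.65 to 0.79 among melanomas, -1.76 to 0.09 among mutant skin arrays and -0.73 to 1.20 among wild-type arrays.

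The cross-linking oxidases went apart. Lysyl oxidase, encoded by loxa, starts the covalent links of collagen and elastin. Its values were 0.61, -0.62, 3.09, 2.00, 1.90 and -1.91 in the mutant skin arrays, -3.36, -1.76, -0.41, -0.81, -2.18 and -1.77 in the melanomas and -1.42, -0.80 and -0.32 in wild-type skin. Mutant skin 1, 3, 4 and 5 lay above every melanoma and every wild-type array. The change was -2.56 ± 0.74 (adjusted p = 0.0398) and lost the threshold in 11 of the 22 alternative fits, among them those without any 1 of mutant skin 1, 3, 4 and 5, of melanoma 1, 2, 4 and 5 and of the wild-type arrays 2 and 3, with adjusted p up to 0.0921. It was -2.86 without mutant skin 2 and -4.20 without the 7 arrays (adjusted p = 0.0257 and 0.00576). In the fit with the oocyte level as a covariate it was -3.47 ± 0.68 (adjusted p = 0.00708). Against wild-type skin the change with all arrays was -0.87 ± 0.91 (adjusted p = 0.548).

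The oxidase gene loxl2b, a relative whose human counterpart acts on type IV collagen and is known from invasive tumours, had values of 1.74, 2.87, 0.69, 0.90, 0.40 and -2.98 in the melanomas, -1.13, -0.69, 0.15, -1.16, -0.50 and -2.997 in the mutant skin arrays and -1.94, 0.71 and 0.47 in wild-type skin. Melanoma 1 to 5 lay above all mutant skin arrays, while melanoma 6 and mutant skin 6 were alike. The change was 1.65 ± 0.83 (adjusted p = 0.232), and 2.37 ± 0.63 without melanoma 6 (adjusted p = 0.0168). It was 1.49 without the 7 arrays, and 0.31 ± 0.60 with the oocyte level as a covariate (adjusted p = 0.728). Within an array loxl2b exceeded loxa by 4.22 more in melanoma than in mutant skin (exact p = 0.00649, adjusted exact p = 0.0276, 5 of 6 melanomas above all mutant skin arrays). Leaving out melanoma 6 raised the count of raised members from 1 to 4 of 55, with loxl2b, lama4 and the protease gene mmp11b beside col9a2. Melanoma 6 was the lowest melanoma in each of these probe sets, so leaving it out favours these calls. Here, above and below, p-values from the fit without melanoma 6 are descriptive and no independent support. In that fit 12.9% of all probe sets rose and 7.08% fell, so the share is again below the background, and 2 members, fn1b and loxa, fell.

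Of 9 metalloproteinase probe sets 0 passed with all arrays (4 had an unadjusted p under 0.05, median change -0.54) and 3 fell without mutant skin 2. The gelatinase gene mmp2, a gene of dermal fibroblasts whose product is activated by MMP14, had values of 2.43, -2.40, 2.38, 2.12, 2.27 and -0.81 in the mutant skin arrays, -1.26, -3.54, -0.29, -0.20, -1.06 and -0.93 in the melanomas and 0.22, 1.75 and 2.14 in wild-type skin in probe set 2. In this probe set every melanoma lay below the wild-type arrays and below mutant skin 1, 3, 4 and 5. In the other, melanoma 4, at 0.27, lay above wild-type skin 1, at 0.21. The change of probe set 2 was -2.21 ± 0.85 (adjusted p = 0.114), and -2.89 ± 0.70 without mutant skin 2 (adjusted p = 0.0161). Its other probe set had -1.78 ± 0.81, and -2.47 without mutant skin 2 (adjusted p = 0.182 and 0.0199). With the oocyte level as a covariate probe set 2 had -3.02 ± 0.87 and the other -2.35 ± 0.87 (adjusted p = 0.0288 and 0.0766).

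The membrane-bound protease genes mmp14a and mmp14b differed from each other. For mmp14a the values of probe set 2 were 1.53, -1.54, 2.53, 1.45, 1.39 and -1.82 in the mutant skin arrays, -1.12, -2.35, -0.06, 0.06, -1.61 and -2.28 in the melanomas and 0.21, 1.71 and 2.04 in wild-type skin. The change was -1.82 ± 0.75 (adjusted p = 0.14), and -1.52 ± 0.63 in the other probe set (adjusted p = 0.145), which passed without mutant skin 2 (-1.98, adjusted p = 0.0287). With the oocyte level as a covariate probe set 2 had -2.91 ± 0.61 and the other -2.36 ± 0.56 (adjusted p = 0.00876 and 0.0129). Without the arrays with high oocyte levels they had -2.98 and -2.53. For mmp14b they were -1.13, -0.21, 0.69, 0.58, 0.28 and -2.04 in the melanomas and -1.47, -2.47, -0.97, -0.74, 0.05 and -2.30 in the mutant skin arrays, with a change of 1.01 ± 0.55 (adjusted p = 0.275). The change of mmp14b was 0.50 without the arrays with high oocyte levels. With the oocyte level as a covariate it was 0.09 ± 0.38 (adjusted p = 0.876). Within an array mmp14b minus mmp14a was -0.16 to 2.03 among melanomas and -3.03 to -0.76 in mutant skin. The groups did not overlap, mutant skin 2 and melanoma 6 included, and the difference of 2.67 had the smallest exact p that 6 against 6 arrays allow, 0.00216 (adjusted exact p = 0.0245). Such a difference shows unequal change and not which of the genes moved. Of the 17 pairs 4 passed, namely the 2 with col9a2, loxl2b with loxa and mmp14b with mmp14a. The 2 with col9a2 largely restate the change of that 1 gene. In the other pairs, such as col10a1a with col10a1b (difference 0.01) and col1a2 with col1a1a (0.12), the adjusted exact p was 0.125 or more.

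Among the other proteases, the collagenase gene mmp13a was scattered within each group, with values of -4.25, 0.08, -0.90, -1.51, -2.83 and 2.54 in the melanomas, -2.84, 0.08, -0.89, 0.99, -0.57 and -0.40 in the mutant skin arrays and -3.38, -3.18 and -0.58 in wild-type skin. Its change was -0.54 ± 0.97 (adjusted p = 0.813). The gelatinase gene mmp9, expressed by neutrophils, macrophages and injured epidermis, had values of -1.62, -0.17, 1.72, 0.01, -1.38 and -1.43 in the melanomas and -1.41, -0.88, 0.71, 0.26, 1.24 and -2.12 in the mutant skin arrays. The ranges of the groups overlapped, and the change was -0.11 ± 0.64 (adjusted p = 0.945). In wild-type skin it was lower, at -2.32, -2.23 and -1.87, below every melanoma. The change of melanoma against wild-type skin was 1.66 ± 0.78 (adjusted p = 0.181). The mean over 14 probe sets of myeloid genes was -1.45 to -0.05 in wild-type skin, -0.87 to 0.14 among melanomas and -1.55 to 1.20 in mutant skin, and its part in the mmp9 values was not tested. For mmp11b, a protease expressed by stroma around tumours in mammals, the values were 1.49, 0.71, 1.81, 1.36, 0.10 and -3.14 in the melanomas and -3.45 to 0.82 in mutant skin. The change was 1.41 ± 0.87 (adjusted p = 0.342), and 2.12 ± 0.70 without melanoma 6 (adjusted p = 0.0464). It was 0.97 without the arrays with high oocyte levels. With the oocyte level as a covariate it was -0.17 ± 0.49 (adjusted p = 0.819), so its direction depended on the fit. The membrane-anchored protease gene mmp17b had a change of -0.26 ± 0.28 (adjusted p = 0.641).

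The protease inhibitor genes timp2a and timp2b gave no call. The former had values of -1.87 to 0.43 among melanomas, -2.40 to 0.96 among mutant skin arrays and -0.78 to 0.86 among wild-type arrays and a change of -0.35 ± 0.61 (adjusted p = 0.807). The latter had -1.22 to 0.76 among melanomas, -2.25 to 0.40 among mutant skin arrays and -2.56 to 0.85 among wild-type arrays and 0.23 ± 0.59 (adjusted p = 0.874). Without mutant skin 2 the changes were -0.74 and -0.06 (adjusted p = 0.446 and 0.956).

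The second comparison set melanoma against wild-type skin, using the same melanomas. Of the 55 members 1 rose, col9a2, and 2 fell, while 7.46% of all probe sets rose and 6.36% fell. The groups did not overlap for 10 members, 2 higher and 8 lower in melanoma, against 16% of all probe sets in either direction. Those that fell were lamb2l, a laminin beta 2 like chain, and 1 of the 3 probe sets of fn1a. For lamb2l the values were 1.47, 0.78 and 2.02 in wild-type skin, -0.41 to 0.30 among melanomas and -1.42 to 1.27 among mutant skin arrays. The change was -1.54 ± 0.47 (adjusted p = 0.0423), and the call was lost in 11 of 22 alternative fits, without any 1 of the wild-type arrays among them, with adjusted p up to 0.192. The fn1a probe set 3 had values of 1.24, 1.15 and 0.89 in wild-type skin, -0.71 to -0.10 among melanomas and -0.79 to 1.22 among mutant skin arrays, with a change of -1.41 ± 0.36 (adjusted p = 0.019). It was lost without any 1 wild-type array, with a change of the same sign, and without the 7 arrays (adjusted p up to 0.139). The latter fit keeps a single wild-type array, whose spread is taken from the remaining groups. Its sister probe sets had changes of -0.14 and -0.45. In this comparison mmp14a had changes of -2.54 ± 0.92 and -1.84 ± 0.78 and mmp2 of -2.58 ± 1.04 and -2.51 ± 0.99 (adjusted p = 0.0808, 0.136, 0.119 and 0.111).

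The third comparison set mutant skin against wild-type skin. No member passed limma's test in either direction, while 0.0258% of all probe sets rose and 0.168% fell, and 3 members had an unadjusted p under 0.05. The groups did not overlap for 1 member, probe set 2 of fn1a, against 3.12% of all probe sets. It was at -0.12 to 2.92 in mutant skin and -0.46 to -0.13 in wild-type skin (change 1.43 ± 0.77, adjusted p = 0.81). The changes of the members lay between -1.45 for lamb2l and 1.77 for mmp9, with a median of -0.11 (-0.11 for all probe sets). For loxa the change was 1.69 ± 0.91 (adjusted p = 0.805). Without mutant skin 2 the 9 dermal collagen probe sets all had changes above 0, with a median of 0.65, and none passed (lowest adjusted p = 0.672). These 3 comparisons share arrays pairwise, and their values are given side by side only.

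Genes that make, process or accompany these proteins were taken from lists written with earlier results of these data known. Of all probe sets, 6.44% rose and 4.35% fell against mutant skin, and 6.64% fell without mutant skin 2. Against wild-type skin 7.46% rose and 6.36% fell. In lists this short, a single call does not set a list apart from these shares. Of 29 genes of collagen synthesis and folding 13 were measured, by 1 probe set each. In melanoma against mutant skin 1 rose and 1 fell. The one that rose was plod3, a lysyl hydroxylase of collagen (1.72 ± 0.47, adjusted p = 0.031), and the one that fell creb3l2, a regulator of the secretory machinery for collagen (-1.32 ± 0.34, adjusted p = 0.0241). Of 3 measured genes of procollagen processing none passed, and the enhancer pcolcea had a change of -2.24 ± 0.79, adjusted p = 0.0846. Of 4 measured small proteoglycans and versicans 1 fell, decorin, encoded by dcn, which coats type I fibrils (-2.43 ± 0.71, adjusted p = 0.0408), and 3 fell without mutant skin 2. Of 4 probe sets of laminin partners in the basement membrane none passed against mutant skin. Against wild-type skin 3 fell, both probe sets of frem3, a gene of the epidermal basement membrane, with changes of -4.01 ± 0.84, adjusted p = 0.00676 and -5.16 ± 0.94, adjusted p = 0.00332, and dag1, the dystroglycan laminin receptor (-1.78 ± 0.47, adjusted p = 0.0221). Of 11 probe sets of other matrix proteases and their inhibitors 1 rose, the cathepsin gene ctsla (1.88 ± 0.37, adjusted p = 0.00602), and 0 fell. Against wild-type skin serpine2, a protease inhibitor, rose as well (1.53 ± 0.43, adjusted p = 0.0277). Of 16 probe sets of matricellular and TGF-beta output genes 1 fell, thbs3a, a thrombospondin (-2.90 ± 0.88, adjusted p = 0.0483), and 6 fell without mutant skin 2, among them ccn2b and thbs4b.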

How the data were processed

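Whole-tissue RNA of 15 zebrafish pieces was hybridised to Affymetrix arrays, 1 array each. The deposited log2 values were normalised by the authors with GCRMA, per the submitters' processing notes, and no version is given in the sources used here. They carry both signs and were used as deposited, with no filter on low values. The file holds 15617 probe sets, of which 115 controls were left out. Gene symbols came from the platform annotation, and all 55 members matched RefSeq (GRCz12tu) by gene ID with no symbol changed.

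For the 15502 remaining probe sets, limma (version 3.58.1, under R 4.3.3) fitted a linear model with 3 group means and moderated its variances, leaving 12 residual degrees of freedom. The 3 contrasts were taken, each with Benjamini-Hochberg adjustment over the 15502, and a probe set counts as raised or lowered at an adjusted p under 0.05. Adjusted p-values without the word exact come from limma. Pairs of genes of 1 family were compared by two-sided exact permutation of within-array differences (scipy 1.17.1), after probe sets of a gene were averaged. On simulated data for melanoma against mutant skin over 15502 probe sets, 62 of 100 changes of 2 log2 units and 93 of 100 of 4 log2 units were called. The simulated noise was independent and normal, without arrays that stand apart, and the changed probe sets were picked at random. These shares need not hold for the members, which varied more than most probe sets. Members named individually were all those called, the 3 largest changes of each role and a list of well-known genes. The remaining members are given more briefly, so that all 44 genes are accounted for. The members and all lists were chosen with earlier results of these data known. The arrays' number, not a read depth, limits the precision. Quantile normalisation, centring, array weights, fits of 2 groups, the replicate block, the oocyte level as a covariate, the fit without 7 arrays and leaving out each array were tried as alternatives. The same-numbered melanoma and mutant skin arrays deviated together in 4 of 6 pairs (correlation over 0.1, range -0.0748 to 0.696). In 3 of the 6 the best match was the array with the same number. These values neither establish nor exclude pairing, and the labels do not state it. The main tests and the exact permutations therefore treat the arrays as unpaired.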

Additional observations from a re-analysis of the deposited data

Results flagged for a closer look

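Within a group of 6 arrays, 7 member values stood farther from the others than Dixon's critical gap allows, out of 64 groups of values tested. The test covered only the 32 probe sets named individually by the rule given above, which were picked partly by size of change. Other members were not tested. The low values of melanoma 6 for mmp11b (-3.14) and lamc1 (-1.65), for instance, are therefore not counted. Chance gives about 1 in 20 for independent groups. These groups are not independent, as they share arrays and some are probe sets of 1 gene, so the rates cannot be compared directly. Of the 7 values, 5 were in mutant skin 2. That array had low values of -4.41 and -5.38 in the probe sets of col1a1a, -4.74 in probe set 2 of col1a2 and -3.60 in probe set 1 of postnb, and a high value of 2.92 for col9a2. In the other mutant skin arrays col9a2 was at 0.01 or less. Melanoma 5 had a high value of 2.56 for lama5. Melanoma 2 had a low value of -3.54 for probe set 2 of mmp2.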

How the results depend on the processing

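No member called with all arrays changed its direction in any of the 22 alternative fits, and col9a2 was called in all of them against both kinds of skin. Against mutant skin, 1 member rose and 1 fell with all arrays. The number raised was 3 with array quality weights and 3 with the replicate block, which added loxl2b and lama4. The number lowered was 3 after quantile normalisation, 21 with array weights, 0 in a fit of the 2 groups alone, 4 with the replicate block, 21 without the 7 arrays with high oocyte levels and 12 with the oocyte level as a covariate. Of all probe sets, 16.3% rose with array weights and 9.04% with the replicate block. The share lowered was 6.47% after quantile normalisation, 11.4% with array weights, 3.43% for 2 groups alone and 6.78% with the replicate block. With array weights, 5.45% of the members rose and 38.2% fell. Leaving out 1 array at a time gave 1 to 4 raised and 0 to 16 lowered, with 16 without mutant skin 2 and 3 without mutant skin 6. For the fits with the oocyte covariate and without mutant skin 6, the shares of all probe sets are not printed here. Their counts are therefore not compared with a background and are no result about the members.

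Against wild-type skin, 1 rose and 2 fell with all arrays. The number raised was 7 with array weights, 2 with the replicate block and 2 with the oocyte covariate. The number lowered was 24 with array weights, 7 in a fit of the 2 groups alone, 7 with the replicate block and 14 with the oocyte covariate. The shares of all probe sets in the replicate block and oocyte covariate fits are not printed here, so their counts are not compared with a background. The fit without the 7 arrays keeps 1 wild-type array and assumes it to vary like the other groups, so its count is not given. With array weights 12.7% of the members rose and 43.6% fell, beside 30.2% and 24.9% of all probe sets. For 2 groups alone 1.82% of the members rose and 12.7% fell, beside 6.74% and 7.73%. Leaving out 1 array gave 1 to 2 raised and 0 to 6 lowered, with 6 without mutant skin 2 and 0 without any 1 wild-type array. These counts, too, have no share of all probe sets beside them. For mutant skin against wild-type skin, 0 members passed in either direction except with array weights, which gave 6 raised and 4 lowered. These were 10.9% and 7.27% of the members, beside 5.79% and 6.59% of all probe sets. Leaving out 1 array gave 0. The array weights stopped short of their convergence limit. In the replicate block fit, 12 probe set results became called and 1 was lost. The cause of these shifts was not tested. The unstated baseline of the values and the number of arrays limit what can be read of levels and small changes.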

Other observations

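Over the 55 members, relative to their baselines, mutant skin 2 resembled melanoma 2 (r = 0.731) and ran opposite to mutant skin 3 (r = -0.735). Melanoma 6 was most like mutant skin 6 (r = 0.757), another array with a high oocyte level, and unlike melanoma 1 (r = -0.510). These correlations are across probe sets, which are not independent replicates, and share the unstated baseline.

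Markers of other tissues were uneven among the arrays. The mean over 6 liver probe sets was -1.09 to 7.25 among melanomas, with the highest value in melanoma 6, and -0.28 to 6.17 among mutant skin arrays. The mean over 12 exocrine pancreas probe sets was -0.71 to -0.49 among melanomas and -0.51 to 5.51 among mutant skin arrays. For 6 endothelial probe sets it was -0.91 to 0.11 among melanomas, -0.96 to 0.72 among mutant skin arrays and -0.07 to 1.37 among wild-type arrays. In melanoma against mutant skin 0 endothelial probe sets passed in limma's test and 1 had an unadjusted p under 0.05.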
